A study of Mus musculus with 24 samples.

Results

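The proteasome is the barrel-shaped protease that breaks down proteins tagged with ubiquitin. Its 20S core is built from alpha and beta rings, and the beta subunits Psmb5, Psmb6 and Psmb7 cut the substrate. A 19S cap on the core binds ubiquitin chains, removes them and unfolds the substrate with its ATPases. In immune cells and in cells exposed to interferon, Psmb8, Psmb9 and Psmb10 take the place of the cutting subunits to form the immunoproteasome, which favours peptides for MHC class I, and the activators Psme1 and Psme2 (PA28), Psme3 (PA28-gamma) and Psme4 (PA200) open the core in place of the cap. Haematopoietic stem cells make protein slowly, and loss of protein quality control is one of the known themes of ageing.

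The genes described here are the rows of the table of normalized read counts whose symbol begins with Psm, followed by a letter from a to g and a number. They numbered 38 of 18762 genes. Of these, 37 encode subunits, assembly factors or regulators of the proteasome, and *Psmc3ip* (HOP2, a protein of meiotic recombination) shares only the start of its symbol. The 37 were 10 subunits of the 20S core, 3 of the immunoproteasome, the testis-type alpha subunit *Psma8*, 13 of the 19S cap, 5 assembly chaperones and 5 activators or inhibitors. Among a list of 50 proteasome genes, 12 were not analysed here, including *Psmb5*, *Psme1*, *Psmd2*, *Psma2*, *Psma7* and *Psmc1*. Only genes whose normalized read count averaged 10 or more were tested, which held for 36 members and 12354 genes in all. *Psmg3* and *Psme2b* lay under it.

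The libraries came from LSK-SLAM cells, a fraction of bone marrow enriched for stem cells by the surface proteins Sca-1, c-Kit and CD150 and the lack of CD48 and lineage markers, of Wt C57BL/6 mice. There were 5 young mice aged 4 to 5 months and 7 old mice aged 20 to 22 months, with 1 column of values each. These ages are those of the labels. The study's text gives other ages, and the difference could not be settled here. The label of each mouse ends in A or B, a letter whose meaning is not given in the sources used here. Letter A marked 2 young and 4 old mice, and letter B marked 3 young and 3 old mice.

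The values are reads per gene divided by a scaled library size, and 1 read was worth between 0.194 and 1.23 normalized read counts, depending on the mouse. Young mice had 2.05 to 5.12 M reads on genes and old mice 0.861 to 5.00 M. Letter A mice had 0.861 to 3.11 M and letter B mice 3.23 to 5.12 M, without overlap. The row *Gm10800* took 7.18% to 18.6% of the reads in letter A and 1.60% to 8.44% in letter B. Each of the 8 stem cell markers had reads in every mouse, and *Kit* averaged 1508 normalized read counts. Their sum was lowest in old mouse 5 (1474), where the other mice held between 2142 and 5249. In bulk samples, fewer cells of a type and less RNA per cell cannot be told apart.

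Levels were set per kb of exon, counting the union of all annotated exons, so that different genes compare only roughly. The highest level was that of *Psme3*, at 75.0 ± 18.6 normalized read counts per kb (SD, n = 12 mice). *Psmb2*, a beta ring subunit, followed at 68.5 ± 18.9. After a step to *Psmb10* at 43.8 ± 12.9 the levels fell off gradually, through *Psma6* at 40.6 ± 10.9 and *Psma1* at 36.8 ± 6.54, down to *Psmb3* at 6.58 ± 2.44 and the assembly chaperone *Psmd9* at 3.80 ± 1.48. The place of *Psmd9* depended on its exon length of 7.25 kb. Before division by length, its mean of 27.5 normalized read counts stood above the 15.1 of *Psmb3*. Only 3 of the 34 neighbouring pairs in this order differed by more than the larger of their SDs, namely *Psmb2* over *Psmb10*, *Psmf1* over *Psmb3* and *Psmb3* over *Psmd9*. The other neighbours did not differ beyond their spread. By class, the median level per kb was 32.8 in the alpha ring, 30.9 in the immunoproteasome, 25.5 in the 19S ATPases, 21.0 in the beta ring, 20.0 in the activators, 16.5 in the other 19S subunits and 11.7 in the assembly chaperones. *Psma8*, known from testis, held 9.93 per kb. The immunoproteasome genes thus stood within the range of the constitutive core and not below it.

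**Figure D1:**
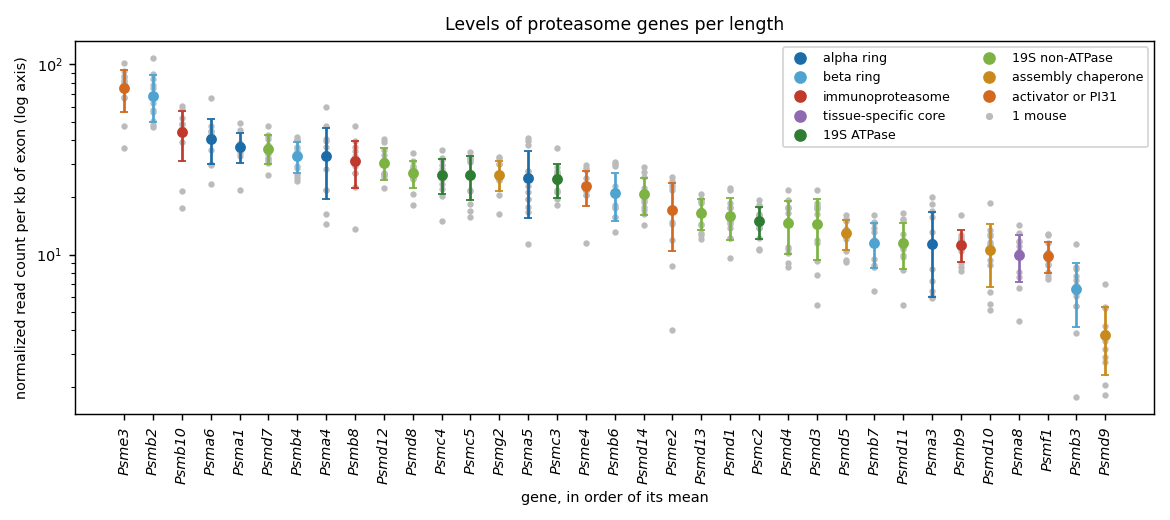
Normalized read count per kb of exon (log axis) for the 35 proteasome genes tested, in order of their mean. Grey points are single mice, and coloured points with bars are the mean ± SD over 12 mice, coloured by class. *Psme3* and *Psmb2* stand highest at 75.0 and 68.5, and *Psmd9* lowest at 3.80.

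The comparison of old with young mice asks whether ageing changes these genes in stem cells. No member passed the test. In a limma fit across all genes, 0 of 36 members had an adjusted p under 0.05, where 0.105% of all genes tested did, and 0 had an unadjusted p under 0.05, where 3.95% of all genes did. None separated the ages without overlap, as 0.461% of all genes did. Count tests on recovered reads called 0 members as well, in edgeR (0.146% of all genes) and in DESeq2 (0.633% of the genes to which it gave an adjusted p). Their unadjusted p was under 0.05 for 1 member each, *Psmf1*, where 3.96% and 4.79% of all genes reached it. In a two-sided exact permutation test of each gene alone, 3 of the 36 members had an unadjusted p under 0.05 (8.33%), where 4.60% of all genes tested did. They were *Psmf1*, *Psmc4* and *Psmb9*, and all 3 had a limma adjusted p of 0.9997. All 3 were also picked for description by the size of their age difference or by role, so their single p-values are given as a description.

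The intervals show how large a difference could have been missed. For 31 of the 36 members the 95% interval of the age difference lay within a 2-fold change in either direction. The interval of *Psme2*, *Psmd3* and *Psmd10* reached past a 2-fold decrease, and that of *Psmb3* and *Psmc3ip* past a 2-fold increase. Differences within these intervals could not be resolved with these mice.

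Beneath the test, 25 of 36 members lay lower in old mice (69.4%, against 52.3% of all genes tested), with a median difference of -0.10 on the log2 scale against -0.02 for all genes. The 4 ATPase genes of the cap were all lower (median -0.17), as were 7 of 9 other cap genes (-0.08), 3 of 5 alpha ring genes (-0.14), 3 of 5 beta ring genes (-0.13), all 3 immunoproteasome genes (-0.27), 3 of 4 assembly chaperones (-0.13) and 2 of 4 activators or inhibitors (-0.06). Much of this rested on 1 mouse. In old mouse 5, a letter A mouse with 1.13 M reads, 20 of 36 members had their lowest value among old mice (55.6%, against 25.9% of all genes tested). Without it 20 members lay lower, and the median was -0.02, equal to the -0.02 of all genes.

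**Figure D2:**
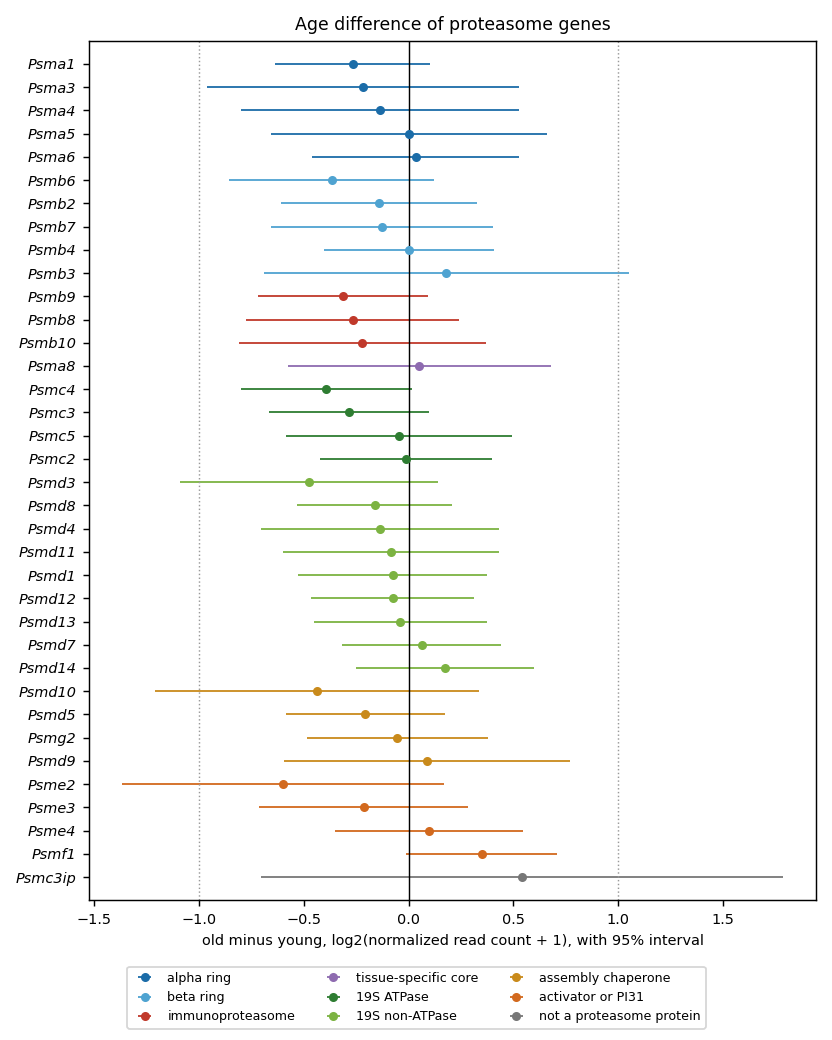
Difference between old and young mice on the log2(normalized read count + 1) scale for the 36 members tested, with 95% intervals from limma, grouped by class. Dotted lines mark a 2-fold change either way. All intervals include 0, and those of *Psme2*, *Psmd3*, *Psmd10*, *Psmb3* and *Psmc3ip* cross a dotted line.

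The median deviation of the members from their mean over all mice was -0.44 in old mouse 5 and -0.23 in old mouse 7, the shallowest library (0.861 M reads), where the medians of all genes were 0.09 in each. In the other mice it ran from -0.13 to 0.30. The immunoproteasome genes deviated by -1.12 in old mouse 5, the alpha ring by -0.73, the beta ring by -0.46 and the assembly chaperones by -0.13. Old mouse 5 was also the lowest in the summed stem cell markers and held 823 normalized read counts of neutrophil and monocyte markers, where the young mice held 140 to 523 and old mouse 6 held 2379. The part of depth and of these markers in the low values was not tested.

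**Figure D3:**
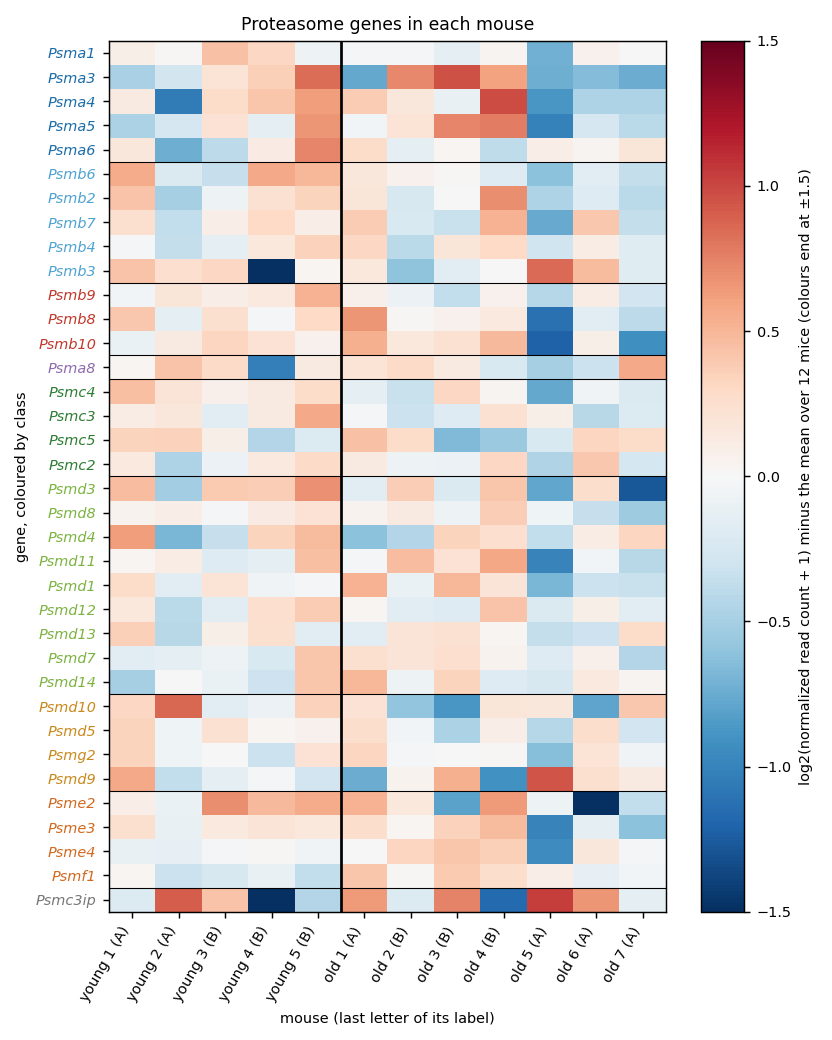
Deviation of each member (rows, coloured by class) from its mean over the 12 mice on the log2(normalized read count + 1) scale, with young mice left and old mice right of the line and the letter of each mouse in brackets. Old mouse 5 is blue in most rows (median -0.44), and colours end at 1.5 in either direction.

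Mice of 1 age differed in these genes by a median SD around the age means of 0.39 on the log2 scale. It was 0.50 over all genes tested and 0.49 over those within the members' range of means. *Psmf1* varied least (0.19), followed by *Psmb9* (0.22) and *Psmd8* (0.24). *Psma3* (0.70), *Psme2* (0.69) and the low *Psmc3ip* (0.97) varied most. With the letter fitted beside age, the SD was 0.26 for *Psma3*, 0.67 for *Psme2* and 0.89 for *Psmc3ip*.

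The 3 genes of the immunoproteasome are shown with their promoters, because they are induced together by interferon in many cells. RefSeq windows of 250 bases before to 50 after the start of transcription were searched for 31 members, on GRCm38.p6. The 150 bases before the start follow, 5′ to 3′ on the strand of the gene, with capitals for a CCAAT box in either orientation. *Psmb8* lies on the plus strand (chr17:34198045-34198194), *Psmb9* on the minus strand (chr17:34187331-34187480) and *Psmb10* on the minus strand (chr8:105938393-105938542).
Psmb8: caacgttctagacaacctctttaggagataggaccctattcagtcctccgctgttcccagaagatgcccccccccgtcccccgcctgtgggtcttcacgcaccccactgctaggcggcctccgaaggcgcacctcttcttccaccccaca
Psmb9: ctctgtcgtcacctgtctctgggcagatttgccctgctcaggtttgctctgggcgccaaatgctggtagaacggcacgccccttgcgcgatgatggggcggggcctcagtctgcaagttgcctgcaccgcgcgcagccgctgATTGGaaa
Psmb10: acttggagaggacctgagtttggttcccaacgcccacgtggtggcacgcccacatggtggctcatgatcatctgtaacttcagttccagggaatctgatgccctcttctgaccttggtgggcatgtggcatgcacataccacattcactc

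A pair of GAAA words set apart by any 2 bases, the core of an interferon response element, was searched on both strands over the whole windows. It was in the windows of 3 of 31 member genes, *Psmb3*, *Psmd4* and *Psmd9*, and in none of those of *Psmb8*, *Psmb9* and *Psmb10*. In GENCODE vM21, *Psmb8* starts at chr17:34197721 and *Psmb9*, on the minus strand, at chr17:34187764. The windows of both thus lay inside the gene as annotated there, and the bases before those starts were not searched. Counted by window, this pair was in 3 of 34 member windows (8.82%) and in 3.44% of all 32851 windows searched. The core TGACNNNGC of the antioxidant response element, read by Nfe2l1, the factor known to restore proteasome genes, was in those of *Psmb6*, *Psmd12*, *Psmd9* and *Psme4*, at 11.8% of member windows against 12.4% of all windows. CCAAT was in 32.4% of member windows and 37.4% of all windows. A match is a description of the letters only.

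*Psmb8* (the LMP7 subunit) had normalized read counts of 133, 90.9, 119, 98.7 and 124 in the 5 young mice and ranged in old mice from 45.8 over a median of 101 to 160. The ages overlapped, with the highest and the lowest value both in old mice. The difference was -0.27 ± 0.24 on the log2 scale (SE, limma adjusted p = 0.9997), and -0.0987 without old mouse 5. In the GENCODE vM21 annotation, 11.6% of its 50-base words also belong to *Gm20496* on the opposite strand, whose reads cannot be told apart where strand was not counted.

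*Psmb9* (the LMP2 subunit) held 39.5, 46.2, 43.6, 45.1 and 58.8 in young mice and from 29.99 over 38.2 to 43.9 in old mice. Of the young mice, 3 stood above all old mice, and the ages overlapped. The difference was -0.31 ± 0.19 (limma adjusted p = 0.9997), and a two-sided exact permutation test over all 792 splits gave 0.0379 before any adjustment. It had the same sign in both letters, at -0.20 in A and -0.39 in B.

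*Psmb10* (the MECL-1 subunit) held 66.3, 77.9, 88.7, 82.4 and 74.3 in young mice. Old mice ran from 29.99 over 79.2 to 103, with the 2 lowest values of all mice in old mice 5 and 7 and the 2 highest in old mice 1 and 4. The difference of -0.22 ± 0.28 (limma adjusted p = 0.9997) was -0.40 within letter A and 0.09 within letter B. It was -0.0337 without old mouse 5 and -0.0820 without old mouse 7.

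Of the constitutive counterparts, *Psmb5* was not analysed here. *Psmb6*, which immunoproteasomes exchange for Psmb9, held 56.3, 32.7, 29.6, 57.1 and 54.4 in young mice and from 24.5 over 34.0 to 42.9 in old mice. It lay lower in old mice by about as much as *Psmb9*, at -0.37 ± 0.23 (limma adjusted p = 0.9997). *Psmb7*, exchanged for Psmb10, held 45.1, 29.3, 41.0, 47.3 and 40.8 in young and from 22.1 over 32.4 to 55.2 in old mice, a difference of -0.13 ± 0.25 (limma adjusted p = 0.9997) that ran from -0.24 without young mouse 2 to -0.00801 without old mouse 5.

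The mean ratios of immune to constitutive subunit lay close together at both ages. *Psmb9* over *Psmb6* was 1.09 ± 0.35 in young mice (SD, n = 5) and 1.10 ± 0.18 in old mice (SD, n = 7). *Psmb10* over *Psmb7* was 1.97 ± 0.46 in young mice and 1.88 ± 0.58 in old mice. These ratios of read counts are not corrected for gene length and describe each pair across mice only. In both pairs the ages overlapped over nearly the whole range.

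**Figure D4:**
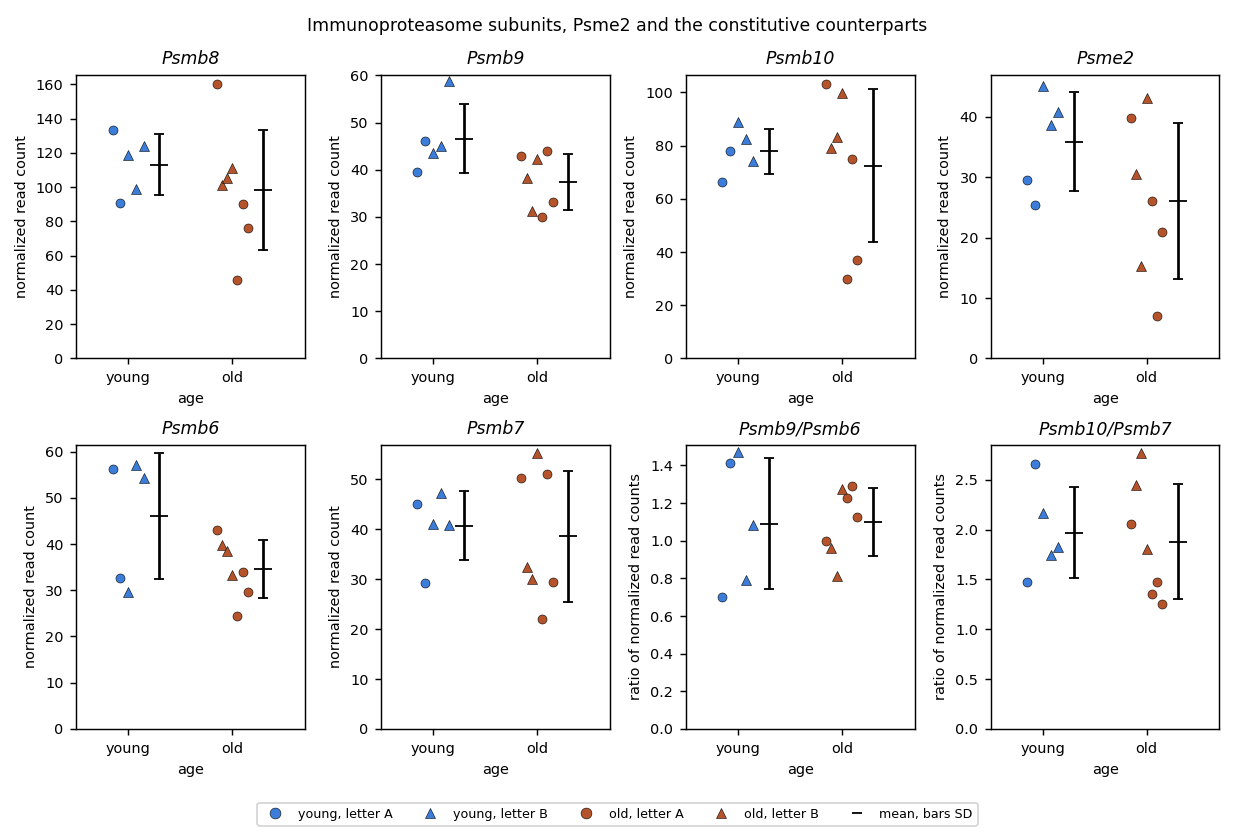
Normalized read counts of *Psmb8*, *Psmb9*, *Psmb10*, *Psme2*, *Psmb6* and *Psmb7* and the ratios *Psmb9*/*Psmb6* and *Psmb10*/*Psmb7* in 5 young and 7 old mice, with circles for letter A and triangles for letter B. Black bars are the mean ± SD. The ages overlap in every panel, and the mean *Psmb9*/*Psmb6* ratio is 1.09 in young and 1.10 in old mice.

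Factors that drive the immunoproteasome and the handling of its peptides did not pass the test for age either. Of 12 genes on that list, 11 were tested, and 0 were called or had an unadjusted limma p under 0.05. In old mice 9 of them lay lower, where 52.3% of all genes did. Their median was -0.11 on the log2 scale, against -0.02 for all genes. With the letter as a covariate 8 lay lower, and the median was -0.04, against -0.05 for all genes. In the fit of age alone *Irf1*, a transcription factor that induces immunoproteasome genes, differed by -0.28. The MHC class I light chain *B2m* differed by -0.07.

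Among the activators, *Psme2* (PA28-beta) had the lowest age difference of all members. It held 29.6, 25.5, 45.1, 38.7 and 40.8 in young mice and from 7.08 over 26.0 to 43.2 in old mice. The lowest values were those of old mice 6 and 3, and the ages overlapped. The difference was -0.60 ± 0.36 (limma adjusted p = 0.9997). Without old mouse 6 it was -0.34, and *Psmd3* was then the lowest member at -0.55. Its copy *Psme2b* shares 28.3% of its 50-base words, so that reads may be split between them. *Psme2b* itself held 1.56, 13.5, 7.06, 19.2 and 20.0 in young mice and from 0 over 7.83 to 14.4 in old mice. The 0 of old mouse 7 allows up to 3.69 normalized read counts, which covers counting error only.

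*Psme3*, a nuclear activator, held 253, 198, 236, 244 and 239 in young mice and from 107 over 219 to 298 in old mice. *Psme4* held 173, 172, 183, 190 and 181 in young mice and from 96.3 over 211 to 249 in old mice. In *Psme4* the young mice lay close together, 4 old mice stood above all of them and old mouse 5 far below. The differences were -0.21 ± 0.24 for *Psme3* and 0.10 ± 0.21 for *Psme4* (limma adjusted p = 0.9997 for both). Without old mouse 5 they were -0.0620 and 0.26.

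*Psmf1* encodes PI31, a proteasome regulator first described as an inhibitor. It was the proteasome gene with the highest age difference. Young mice held 63.1, 49.5, 52.2, 57.1 and 47.9, and old mice from 56.7 over 66.3 to 82.7. Of the old mice, 4 stood above all young mice, with an overlap between 56.7 and 63.1. The means were 54.0 ± 6.205 (SD, n = 5) and 69.3 ± 10.5 (SD, n = 7), a difference of 0.35 ± 0.17 on the log2 scale. Its unadjusted p was 0.0561 in limma (adjusted p = 0.9997), 0.0369 in edgeR (adjusted p = 0.9997) and 0.0230 in DESeq2 (adjusted p = 0.629), and 0.0189 in the two-sided exact permutation test. The difference was 0.23 within letter A and 0.47 within letter B. None of its 50-base words is shared with another gene.

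In the 19S cap, *Psmc4* (the ATPase Rpt3) held 76.5, 63.9, 58.9, 61.2 and 67.9 in young mice and from 32.4 over 50.6 to 69.2 in old mice. All but 1 of the old mice lay below the lowest young mouse, so that the ages overlapped through old mouse 3 alone. Its difference of -0.39 ± 0.19 had an unadjusted limma p of 0.0586 (adjusted p = 0.9997) and an exact permutation p of 0.0290. It was -0.61 in letter A and -0.16 in letter B.

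*Psmd3* (Rpn3), a scaffold subunit of the lid, held 93.0, 46.2, 88.1, 86.5 and 108 in young mice and from 27.1 over 59.2 to 90.01 in old mice. Its difference was -0.47 ± 0.29 (limma adjusted p = 0.9997). *Psmd4* (Rpn10), a ubiquitin receptor, held 61.0, 24.0, 30.6, 49.4 and 54.6 in young and from 25.3 over 42.5 to 49.6 in old mice, at -0.14 ± 0.27. Both overlapped broadly between the ages. Without old mouse 7 *Psmd3* was -0.30, and without young mouse 2 *Psmd4* was -0.33.

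*Psmd14* (Rpn11), the deubiquitinase that strips ubiquitin from the substrate, stood on the other side of 0. It held 40.1, 57.2, 53.4, 45.9 and 76.7 in young mice and from 48.1 over 59.0 to 81.4 in old mice, a difference of 0.17 ± 0.20 (limma adjusted p = 0.9997). Leaving out 1 mouse gave between 0.0721 (young mouse 1) and 0.30 (young mouse 5). *Psmc5* (Rpt6), a further ATPase, held 44.8, 45.2, 37.7, 25.7 and 30.6 in young mice and from 21.9 over 42.8 to 48.4 in old mice. The ages overlapped over nearly the whole range, at -0.05 ± 0.26. The 8 other genes of the cap ranged from -0.29 in *Psmc3* to 0.06 in *Psmd7*.

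Of the assembly chaperones, *Psmd10* (gankyrin) held 18.4, 27.4, 12.95, 13.7 and 18.8 in young mice and from 7.51 over 16.6 to 19.7 in old mice, at -0.44 ± 0.37, and -0.28 without young mouse 2. These values rested on 16 to 86 reads a mouse. *Psmb3* of the beta ring held 19.3, 16.8, 17.7, 4.12 and 14.4 in young and from 8.86 over 14.0 to 26.0 in old mice, at 0.18 ± 0.41, and -0.18 without young mouse 4. *Psmc3ip*, which is no proteasome gene, held 8.09, 18.7, 13.1, 1.18 and 6.76 in young and from 3.69 over 15.4 to 20.5 in old mice, on 6 to 67 reads a mouse. It differed by 0.54 ± 0.59, and by 0.0527 without young mouse 4, so that its place as the highest member rested on that mouse.

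The lists of partner genes gave a like picture. For age, 0 of 9 assembly and regulation genes, 0 of 5 cap partners and 0 of 9 ubiquitin and shuttle genes were called by limma, and none had an unadjusted p under 0.05. The ubiquitin and shuttle genes lay lower in 8 of 9, where 52.3% of all genes did, with a median of -0.41. With the letter as a covariate 8 of 9 lay lower, and the median was -0.29. Among them were *Rad23b*, which carries ubiquitinated proteins to the cap, at -0.36 (-0.27 with the letter), and *Ubb*, a polyubiquitin gene, at -0.52 (-0.29 with the letter). *Nfe2l1* differed by 0.28 and *Pomp*, the chaperone that matures the core, by -0.16. For comparison, all 12 cycling genes were lower in old mice, with a median of -0.69, and 11 had an unadjusted limma p under 0.05, though 0 passed the adjustment. Of the markers of other cell types, 0 were called for age, and *Vwf* (0.77) and *Pf4* (-1.33) of the megakaryocyte list had an unadjusted limma p under 0.05. *Vwf* is also made by a part of the stem cells themselves. The part of cycling and of these markers in the members' values was not tested.

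With the letter as a covariate, 0 of 36 members had an adjusted limma p under 0.05 for age, where 0.299% of all genes did, and 0 had an unadjusted p under 0.05, where 5.20% of all genes did. Their median was then -0.05, as was that of all genes. In letter A alone 26 members lay lower in old mice, and in letter B alone 19 did. The sign was the same in both letters for 14 members lower and 5 members higher in old mice, and opposite for 17. No member passed the test for an age difference that differed between the letters. For this interaction, 0 had an adjusted and 0 an unadjusted limma p under 0.05, where 0.0162% and 3.43% of all genes had one. Letter A held only 2 young mice. The SE of the interaction ran from 0.37 in *Psmd8* to 1.03 in *Psmc3ip* on the log2 scale. Differences of about this size could not be resolved. *Psmd11*, for example, differed by -0.44 in letter A and 0.38 in letter B, an interaction of 0.83 ± 0.41 (SE).

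The letter itself separated the mice more than age did. Comparing letter B with letter A at equal age, limma called 4462 genes, and 4 members were higher in B (adjusted p under 0.05), namely *Psma3*, *Psma4*, *Psma5* and *Psmd3*. That is 11.1% of the members against 10.5% of all genes called higher in B. No member was called lower in B, where 25.6% of all genes were. These counts depended on the scaling. With median-ratio rescaling 12 members were called higher (33.3%, against 27.8% of all genes), and the balance over all genes turned to 3357 called higher and 2389 lower. By direction alone, 27 of 36 members lay higher in B (75.0%, against 45.5% of all genes), with a median of 0.16 on the log2 scale against -0.09. The contrast in medians depended on the level of the genes compared. At a minimum mean of 30 the median was 0.18 over 31 members and 0.21 over all genes. There, 87.1% of the members and 69.6% of all genes lay higher in B. With rescaling the medians were 0.46 for the members and 0.23 for all genes, and 88.9% of the members and 59.9% of all genes lay higher in B. Without overlap between the letters, 1 member was higher in B, where 3.16% of all genes were, and 0 were lower, where 7.33% were.

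The share of members called higher in B, 11.1%, was near the 10.5% of all genes. The 3 alpha ring genes among them did not follow each other in every mouse. In old mouse 1, of letter A, *Psma3* was at its lowest (23.1), while *Psma4* held 93.6, more than in old mouse 2 of letter B (80.7). The 150 bases before the start of these 3 genes are shown in the same way. All lie on the plus strand, *Psma3* at chr12:70974473-70974622, *Psma4* at chr9:54950709-54950858 and *Psma5* at chr3:108256776-108256925. Only that of *Psma3* holds a CCAAT box, in capitals, and none of the 3 windows holds the other motifs. *Psmd3* had no window.
Psma3: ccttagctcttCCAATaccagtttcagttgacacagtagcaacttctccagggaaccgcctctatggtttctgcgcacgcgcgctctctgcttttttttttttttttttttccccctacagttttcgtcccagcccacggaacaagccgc
Psma4: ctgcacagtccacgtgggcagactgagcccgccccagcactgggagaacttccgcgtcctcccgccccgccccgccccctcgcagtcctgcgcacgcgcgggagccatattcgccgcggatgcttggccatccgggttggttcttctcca
Psma5: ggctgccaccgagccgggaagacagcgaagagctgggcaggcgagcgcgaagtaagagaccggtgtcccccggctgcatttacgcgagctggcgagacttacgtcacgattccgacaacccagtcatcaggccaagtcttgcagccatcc

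*Psma3* (alpha7) ranged from 23.1 over 24.4 to 32.7 normalized read counts in the 6 mice of letter A and from 46.1 over 63.7 to 78.3 in the 6 of letter B. The letters did not overlap, in young and in old mice. The difference was 1.22 ± 0.21 on the log2 scale (SE, limma adjusted p = 0.000246). *Psma5* (alpha5) ranged from 14.996 over 24.7 to 30.3 in letter A and from 28.1 over 43.1 to 53.9 in letter B, at 0.84 ± 0.25 (limma adjusted p = 0.0115). *Psma4* (alpha3) ranged from 34.1 over 51.8 to 93.6 and from 66.6 over 91.4 to 142, at 0.78 ± 0.24 (limma adjusted p = 0.0125). In *Psma4* and *Psma5* the letters overlapped. In young mice alone, 2 of letter A against 3 of letter B, 0 members were called, where 1.53% of all genes were called higher in B. In old mice alone *Psma3*, *Psma5* and *Psmd11* were called higher in B (8.33% of members, against 4.85% of all genes). *Psma4* and *Psmd3* were not called there.

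Each of these 3 genes shares sequence with a processed pseudogene in GENCODE vM21, by 15.4% of 50-base words for *Psma3* (*Gm13835*), 11.6% for *Psma4* (*Gm6542*) and 33.6% for *Psma5* (*Gm8394*), and with all other genes together by up to 49.96% in *Psma5*, so that their counts are uncertain where such reads were split or dropped. The other alpha ring genes, *Psma6* at -0.01 and *Psma1* at 0.15, were not called. *Psmd3* ranged from 27.1 over 52.7 to 93.0 in letter A and from 57.5 over 87.4 to 108 in letter B, at 0.61 ± 0.24 (limma adjusted p = 0.0434), with overlap.

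**Figure D5:**
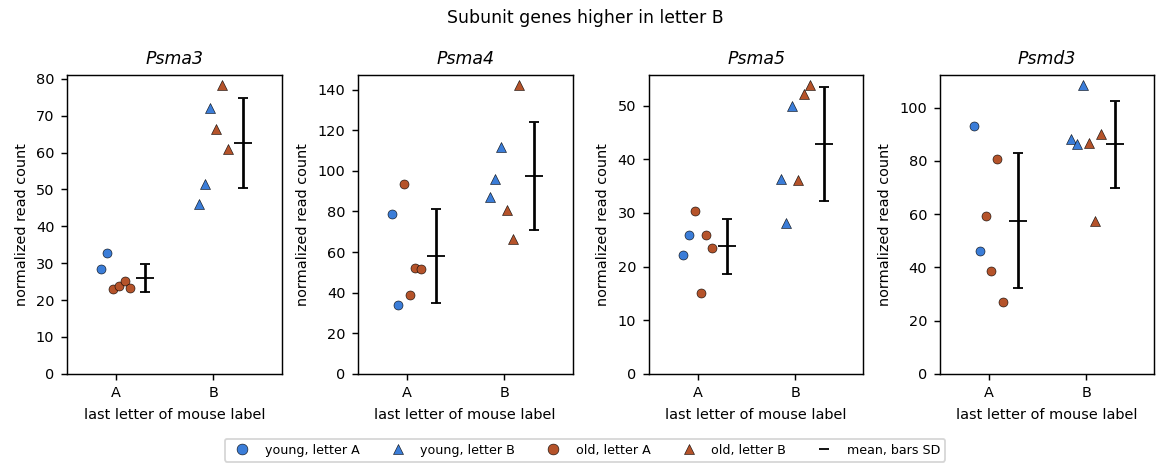
Normalized read counts of *Psma3*, *Psma4*, *Psma5* and *Psmd3* in the 6 mice of letter A and the 6 of letter B, blue for young and brown for old mice, with the mean ± SD in black. *Psma3* does not overlap between the letters (at most 32.7 in A, at least 46.1 in B), and the other 3 genes do.

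At the other end, *Psmc3ip* (-0.90 ± 0.50), *Psmb3* (-0.65 ± 0.37) and *Psmc5* (-0.52 ± 0.23) had the lowest letter differences, none past the threshold (limma adjusted p = 0.151, 0.168 and 0.0761). *Psmb10* was higher in B by 0.47 ± 0.24 (limma adjusted p = 0.118). Of the partner lists, 7 of 9 ubiquitin and shuttle genes were called higher in B, among them *Rps27a*, which encodes ubiquitin fused to a ribosomal protein, at 3.72, and *Ubb* at 1.33. In the other lists, 2 of 9 assembly and regulation genes and 1 of 5 cap partners were called higher, where 10.5% of all genes were. These included the segregase *Vcp*, which hands substrates to the proteasome, at 1.55, and *Adrm1*, the ubiquitin receptor Rpn13 of the cap, at 1.47. Not all genes of these lists lay higher in B, with *Pomp* at -0.33 and *Sem1* at 0.0038.

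Several other measures moved with the letter, as the depths above did. Called lower in B were 3 of 6 erythroid, 4 of 7 neutrophil and monocyte, 3 of 4 B cell and 4 of 6 endothelial and stromal genes tested. Not all lists of other cell types went this way. Called lower were 0 of 4 antigen-presenting, 0 of 1 T and NK cell and 0 of 5 megakaryocyte genes. Called higher were 1 of the 5 megakaryocyte genes, *Vwf*, and 3 of 8 stem cell markers. Of all genes tested, 25.6% were called lower in B and 10.5% higher. The summed neutrophil and monocyte markers ranged from 157 to 2379 normalized read counts in A and from 78.3 to 523 in B, and the stem cell markers from 1474 to 3968 and from 3757 to 5249. The erythroid sum ranged from 111 to 681 in A and from 65.3 to 224 in B, the B cell sum from 95.5 to 168 and from 58.5 to 97.5, and the endothelial and stromal sum from 252 to 361 and from 203 to 310. Of these markers, none was at 0 in any mouse, and among the T and NK cell markers *Cd3e* and *Klrd1* were at 0 in 1 mouse each. When every library was thinned to as few reads as the shallowest one, *Psma3*, *Psma4* and *Psma5* were still called, and *Psmd3* was not. The part of the markers in the letter differences was not tested.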

How the data were processed

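RNA-seq libraries of LSK-SLAM cells were made from ribosome-depleted RNA with the TotalScript kit and sequenced on an Illumina HiSeq. Per the labels, the submitters' notes name FastQC 0.11.8, STAR 2.5.4b, edgeR 3.24.3 and mm10; the counting tool is not given in the sources used here. The labels list 24 samples, 2 for each of 12 mice, and the authors deposited 1 column per mouse. The deposited signal is reads per gene divided by a scaled library size. A further table holds the authors' own comparison (log2 fold changes, log2 CPM, likelihood ratios, p-values and FDR) and was not used.

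All values (100%) were whole multiples of 1 read, within 1e-06 reads, so reads were recovered (0.861 to 5.12 M per mouse, counting error smallest in the deepest). The main test was limma 3.58.1 in R 4.3.3 (lmFit, eBayes with trend) on log2(value + 1), for genes with a mean of at least 10, with Benjamini-Hochberg adjustment over all genes. A fold change on this scale understates that of low genes. The design was written for normalized values and kept. Age was fitted alone, the letter beside age. edgeR 4.0.16 and DESeq2 1.42.0 were run on recovered reads. Single genes were compared by two-sided exact permutation tests, not adjusted, and the same test over all genes served as background. Replicates are separate mice, and p-values measure the spread between them. Fits were tested on simulated data.

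Values in full were given for the immunoproteasome genes and counterparts, the activators and *Psmf1*, the 4 highest and 4 lowest age and 3 highest and 3 lowest letter differences, *Psmd14*, *Psmd4* and *Psmc4*; other genes are by range. Partner and marker genes come from lists, and those singled out were chosen after their values were seen. The members and lists were chosen with earlier results of these data known. Gene lengths, the union of exons, and shared words came from GENCODE vM21, and promoters from RefSeq (GRCm38.p6). Tables and figures used Python 3.11.15, pandas 2.3.3, numpy 2.4.6 and matplotlib 3.10.9.

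Alternatives tried were a pseudocount of 5, minimum means of 1, 30 and none, no trend, the letter as a covariate, either letter or age alone, a replicate block, median-ratio rescaling, thinned reads, count tests and the fit without each mouse. The fit over replicates 1 to 5 without the block, the block with the letter, the fit without old mouse 5 with the letter, and edgeR with the letter were added after the data were seen.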

Additional observations from a re-analysis of the deposited data

Results flagged for a closer look

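*Psme4* in old mouse 5 stood apart from its group, at 96.3 normalized read counts where the other 6 old mice held 183 to 249. A sample that far from the others by Dixon's criterion arises by chance in about 1 of 20 groups. Of 40 groups looked at (20 genes in young and in old mice), 1 was singled out, where chance alone would give about 2.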

How the results depend on the processing

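For age, 0 members were called under any of 28 alternatives, with 0 to 2 at an unadjusted p under 0.05, 19 to 28 members lower in old mice and a median from -0.19 to -0.01. The count of all genes called for age (13) was 22 at a minimum mean of 30, 2 without trend, 5 with median-ratio rescaling, 37 with the letter as covariate, 1 in letter A only, 100 in letter B only, 57 in DESeq2, 43 in edgeR with the letter, 76 without old mouse 5 with the letter, and 3 to 32 when 1 mouse was left out. It was 32 without old mouse 5, 3 without young mice 3 or 4 or old mice 1, 2 or 3, 4 without young mouse 5, 6 without young mouse 1 and 7 without old mouse 6. The causes were not tested.

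Whether the replicate numbers pair the mice could not be settled. Deviations of same-numbered mice correlated by 0.18, -0.56, 0.40, 0.61 and 0.04, and 4 of 10 mice correlated best with their own number. Young and old mice of numbers 1, 3 and 4 share a letter and those of numbers 2 and 5 do not. Pairing by number and likeness by letter thus cannot be told apart here. With the replicate block over replicates 1 to 5, 19 genes were called, against 8 in the same mice without the block and 88 with block and letter, and 0 members in each. *Psma4* then differed by 0.0275 and *Psma3* by 0.0289 under all 3 fits, opposite in sign to the main values.

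Further age differences of named genes changed sign, and none of these values passed the test. In letter B only *Psmb10* was 0.0907, *Psme3* 0.12 and *Psma3* 0.29. In letter A only *Psme4* was -0.0845, *Psmb3* -0.0134, *Psma4* 0.10 and *Psma5* -0.0591. Without old mouse 5 with the letter *Psmb3* was -0.00365, *Psma4* 0.0704 and *Psma3* 0.0109. In edgeR with the letter *Psma4* was 0.0193 and *Psma3* 0.00272, and with rescaling *Psma5* was -0.0365. Leaving out 1 mouse gave -0.18 to 0.32 for *Psmb3*, -0.16 to 0.0628 for *Psmc5*, -0.42 to 0.0029 for *Psma4* and -0.13 to 0.17 for *Psma5*.

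For the letter, *Psma3* and *Psma5* were called without any 1 mouse, *Psma4* in 10 of 12 (not without young mouse 2 or old mouse 4) and *Psmd3* in 4 of 12 such fits. Members called numbered 2 to 6 then (2 without young mouse 2 or old mouse 4, 6 without old mouse 1), with *Psmc5* called lower without old mouse 2 or 5, and all genes called 2943 to 5003. In young mice only 0 members and 447 genes were called, in old mice only 2761 genes, and at a minimum mean of 30, 1456 genes. Median-ratio rescaling moved the median of all genes from -0.09 to 0.23, so that 3357 genes were called higher and 2389 lower (1301 and 3161 before), 12 members were called, all higher, and the member median was 0.46. Letter differences changed sign for *Psmb9* in old mice only (-2.29e-05) and with thinned reads (-0.00582), *Psmf1* without covariate (-0.0162) and in young mice only (-0.0960), *Psmc4* in young mice only (-0.16), and *Psmd14* in old mice only (-0.0867) and with thinned reads (-0.13). Leaving out 1 mouse gave -0.0168 to 0.12 for *Psmf1*, -0.00057 to 0.20 for *Psmc4*, -0.0596 to 0.14 for *Psmd14* and -0.0167 to 0.38 for *Psmd4*.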
